A study of Mus musculus with 12 samples.

Results

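The histone deacetylase genes examined here are 10 mouse genes, Hdac1, Hdac2, Hdac3, Hdac4, Hdac5, Hdac7, Hdac9, Hdac10, Hdac11 and Sirt1, and they were followed through peaks of H4K8ac, the acetylation of lysine 8 on histone H4. Members were taken by name: every row of the 6 deposited H4K8ac peak lists whose nearest gene was one of the 10 was used. All 10 had at least 1 peak, out of 23433 genes named in the lists, and they held 279 of the 269580 peaks. The mark was mapped by ChIP-seq, the sequencing of DNA recovered with an antibody to the mark, in oligodendrocyte progenitor cells (OPCs), the dividing glia that form myelinating oligodendrocytes, sorted from the forebrain of PdgfrαH2BEGFP mice. These mice carry a nuclear green fluorescent protein controlled by Pdgfra, the gene of a growth factor receptor of OPCs that is also expressed by fibroblasts. The neonatal group (nOPCs) was taken at postnatal day 5 and the adult group (aOPCs) at postnatal day 60, with 3 libraries labelled as biological replicates in each, and all mice carried the same reporter. No other treatment is given in the labels, and 6 input libraries were not analysed here. Coordinates are of the mouse build GRCm38, counted from 1.

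Histone deacetylases remove acetyl groups from lysines of histones and other proteins, the reverse of the reaction that makes H4K8ac. Class I enzymes (Hdac1, Hdac2, Hdac3) are nuclear and act inside corepressor complexes, and Hdac1 and Hdac2 together are required for oligodendrocyte differentiation. Class IIa enzymes (Hdac4, Hdac5, Hdac7, Hdac9) have little catalytic activity of their own, bind MEF2 transcription factors and leave the nucleus when bound by 14-3-3 proteins. Hdac10 is a class IIb enzyme that acts on polyamines, Hdac11 is the only class IV enzyme, and Sirt1 is a sirtuin (class III), which needs NAD. Acetylation of H4 at lysine 8 is found at active promoters and enhancers. A peak here reports the mark on the chromatin of the gene and not the amount or the activity of the enzyme.

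RefSeq promoters (GRCm38.p6, 250 bases before to 50 after a start site) were available for 7 of the 10 members, in 11 entries. The 6 below are shown because they set start sites that carried the mark at both ages beside starts of Hdac7 and Hdac9 marked in adult cells only or in neither age. Capitals mark each CpG, a C followed by a G, and letters run 5′ to 3′ on the gene's strand.
Hdac2, chr10:36974294-36974593, plus strand, peak in 3 neonatal and 3 adult libraries: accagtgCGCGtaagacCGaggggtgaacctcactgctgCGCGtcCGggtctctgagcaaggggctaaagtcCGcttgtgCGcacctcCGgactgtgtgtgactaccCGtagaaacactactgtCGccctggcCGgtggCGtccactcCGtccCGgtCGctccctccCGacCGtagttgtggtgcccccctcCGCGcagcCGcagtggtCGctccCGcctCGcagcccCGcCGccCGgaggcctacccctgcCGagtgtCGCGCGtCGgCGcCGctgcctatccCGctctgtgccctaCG
Sirt1, chr10:63338986-63339285, minus strand, peak in 2 neonatal and 3 adult libraries: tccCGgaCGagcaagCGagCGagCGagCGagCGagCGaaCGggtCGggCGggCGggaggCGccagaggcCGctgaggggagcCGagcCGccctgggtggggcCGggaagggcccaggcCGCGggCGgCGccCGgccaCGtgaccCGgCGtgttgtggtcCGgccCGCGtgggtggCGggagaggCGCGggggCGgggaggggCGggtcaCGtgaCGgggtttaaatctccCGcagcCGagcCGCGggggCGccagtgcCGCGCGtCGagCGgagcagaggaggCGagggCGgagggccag
Hdac7 start with peaks at both ages, chr15:97831446-97831745, minus strand, peak in 3 neonatal and 3 adult libraries: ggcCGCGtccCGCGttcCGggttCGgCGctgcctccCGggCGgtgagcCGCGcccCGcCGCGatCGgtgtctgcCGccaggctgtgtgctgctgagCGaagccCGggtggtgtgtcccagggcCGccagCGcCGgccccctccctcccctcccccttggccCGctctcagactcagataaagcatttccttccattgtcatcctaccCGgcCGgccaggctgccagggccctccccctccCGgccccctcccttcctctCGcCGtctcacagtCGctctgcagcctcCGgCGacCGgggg
Hdac7 internal start, chr15:97814814-97815113, minus strand, peak in 0 neonatal and 3 adult libraries: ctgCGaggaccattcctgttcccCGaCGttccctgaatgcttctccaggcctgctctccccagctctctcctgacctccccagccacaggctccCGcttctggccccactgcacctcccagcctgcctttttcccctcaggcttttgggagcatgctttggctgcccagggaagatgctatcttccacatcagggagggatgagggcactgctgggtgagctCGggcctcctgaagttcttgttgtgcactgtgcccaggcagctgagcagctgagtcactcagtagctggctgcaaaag
Hdac9 internal start, chr12:34528840-34529139, minus strand, peak in 0 neonatal and 3 adult libraries: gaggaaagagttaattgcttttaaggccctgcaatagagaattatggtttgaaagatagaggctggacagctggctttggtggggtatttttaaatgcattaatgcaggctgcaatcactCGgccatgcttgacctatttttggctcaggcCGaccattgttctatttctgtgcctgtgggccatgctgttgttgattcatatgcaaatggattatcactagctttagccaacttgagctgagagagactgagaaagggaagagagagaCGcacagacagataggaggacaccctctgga
Hdac9 most upstream start, chr12:34917046-34917345, minus strand, peak in 0 neonatal and 0 adult libraries: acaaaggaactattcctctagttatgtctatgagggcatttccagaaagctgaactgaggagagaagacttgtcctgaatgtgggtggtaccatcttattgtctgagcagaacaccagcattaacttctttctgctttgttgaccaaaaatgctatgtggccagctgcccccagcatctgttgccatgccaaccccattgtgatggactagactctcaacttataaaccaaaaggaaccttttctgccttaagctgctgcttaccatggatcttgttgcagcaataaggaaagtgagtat

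These windows differed in CpG content. Sirt1 had 47 CpGs, more than 98.6% of the 32851 RefSeq promoters of the same length, Hdac2 had 36 and the Hdac7 start marked at both ages had 31. The internal starts marked in adult libraries only had 5 CpGs (Hdac7) and 3 (Hdac9), and the unmarked upstream Hdac9 start had 0. The entries not printed did not all follow this order: the Hdac4 window had 32 CpGs and 5 GC boxes (GGGCGG), with a peak over it in 0 neonatal and 0 adult libraries and peaks beside it in every library. Over all RefSeq promoters, the median was 34 CpGs for the 1751 with a peak in all 6 libraries, 16 for the 2469 with a peak in all 3 adult and no neonatal libraries and 3 for the 18570 with a peak in none. The GC box GGGCGG, searched on both strands with overlaps counted, occurred 7 times in the Sirt1 window, 1 time each in those of Hdac2 and the CpG-rich Hdac7 start, and 0 times in the other 3 windows shown. It was found in 35.7% of all RefSeq promoters and in 80.1% of those with a peak in all 6 libraries. The CCAAT motif, searched the same way, was in none of the 6 windows shown, occurred 2 times each in the Hdac4 and Hdac5 windows and 1 time in that of Hdac11, and was in 37.4% of all promoters.

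The deposited lists differed greatly in length, which bears on every comparison of the ages. The lists of neonatal replicates 1, 2 and 3 counted 9097, 31189 and 7353 peaks, and adult lists between 72278 and 77002. Read numbers were not in the files, so the depth of the libraries is unknown, and more mark, deeper sequencing and stronger enrichment cannot be told apart as sources of a longer list. Nor can more mark per cell be told apart from more cells with the mark. For this reason each member was also described among the 7353 strongest peaks of each library by p-value, the length of the shortest list. Promoter peaks of OPC markers were present for 6 to 8 of 8 genes in every library, and those of microglial markers for 0 of 8 in neonatal and 1 of 8 (Cx3cr1) in adult libraries. Neuronal markers had one for 0, 5 and 1 of 8 genes in neonatal and 5, 3 and 3 in adult libraries, and astrocyte markers for 3, 6 and 1 of 8 against 5, 3 and 6. Fibroblast markers had a promoter peak for 0, 3 and 0 of 8 genes in neonatal and 3 of 8 in each adult library. Genes of myelinating oligodendrocytes had one for 2, 2 and 1 of 8 in neonatal libraries and 8 of 8 in each adult library. Their promoter peaks summed to between 435 and 3081 bp in neonatal and between 49693 and 79301 bp in adult libraries, with Aspa, Mag, Mobp, Mog and Opalin among the genes at 0 in every neonatal library. The part of the myelin genes' pattern in the results below was not tested.

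H4K8ac at promoters, by the authors' annotation within 3000 bp of a start site, was present at most members in both ages and covered more bases in adult cells. In neonatal replicates 1, 2 and 3, promoter peaks were listed for 7, 10 and 7 of the 10 members, against 10 of 10 in every adult library. Among equal numbers of peaks the means were 7.33 members in neonatal and 6.67 in adult libraries. This difference of -0.667 was smaller in size than the standard deviation between libraries of an age in the full lists, 1.22. For 8 members, all but Hdac2 and Hdac3, the promoter peaks covered more bases in every adult than in every neonatal library. Over the 18548 genes with a promoter peak in any library this held for 60.1%. A promoter peak in all 6 libraries was found for 7 members (21.5% of those genes), and none of the members had promoter peaks in all adult and no neonatal libraries, a pattern of 12.1% of the genes. Without neonatal replicate 2, 3 members had this pattern, Hdac1, Hdac3 and Hdac9, against 38.2% of the 17651 genes with a promoter peak in the remaining libraries. In exact two-sided permutation tests of 3 against 3 libraries the smallest possible p is 0.1, which the 8 members reached. Their Benjamini-Hochberg adjusted p over all 18548 genes was 0.165, so none passed 0.05.

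**Figure D1:**
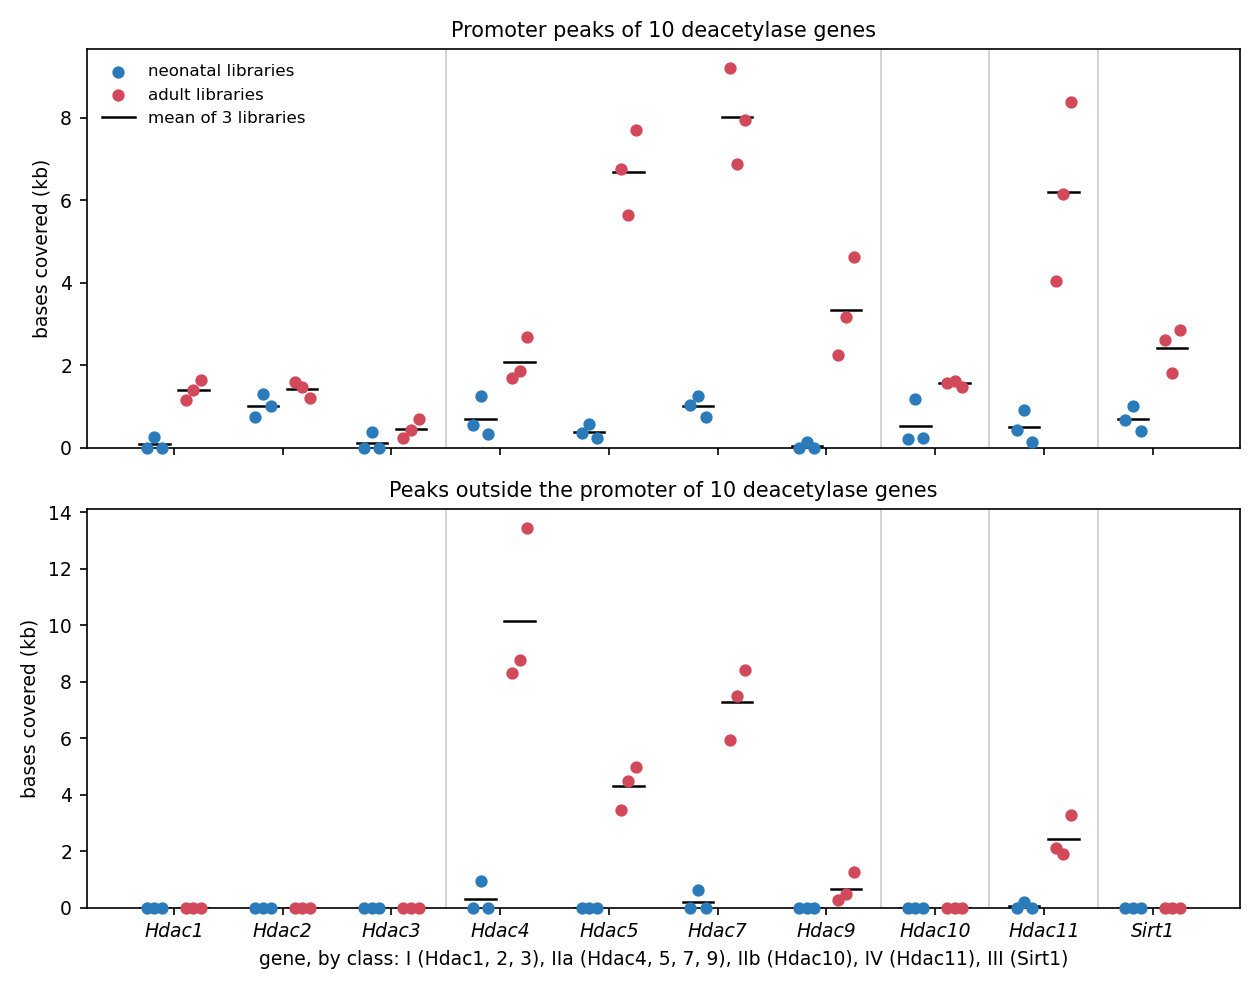
Bases covered by H4K8ac peaks (kb, linear axis) at the promoter (upper panel) and elsewhere (lower panel) for each gene, ordered by class, with 1 point per library and a bar at the mean of 3 libraries. The adult points of Hdac5, Hdac7 and Hdac11 lie above 4 kb at the promoter, and only Hdac4, Hdac5, Hdac7, Hdac9 and Hdac11 have any peak outside it.

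Among the class I genes, Hdac2 was marked in every library, while Hdac1 and Hdac3 had a neonatal peak in 1 library only. Hdac1 (chr4:129516104-129542713, minus strand) had promoter peaks over 0, 273 and 0 bp in neonatal replicates 1, 2 and 3 and over 1158, 1408 and 1650 bp in adult replicates 1, 2 and 3. The groups did not overlap, and the only neonatal peak was in replicate 2, which has the longest neonatal list. Hdac2 (chr10:36974544-37001889, plus strand) had a single peak across its start site in all 6 libraries, of 745, 1312 and 1008 bp in neonatal and 1606, 1470 and 1214 bp in adult cells. The groups overlapped, and the difference of means, 408 bp, gave p = 0.2 (exact permutation test, n = 3 and 3; adjusted p = 0.3 over all genes). The geometric mean coverage was 1.43 times higher in adult than in neonatal cells, a ratio above those of 7.06% of the 3996 genes with a promoter peak in all 6 libraries, whose median ratio was 3.01. The Hdac2 peak ranked high in neonatal lists, at 168 of 9097, 316 of 31189 and 93 of 7353 by p-value, and at 897, 2927 and 111 in the adult lists.

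Hdac3, the catalytic subunit of the NCoR and SMRT complexes (chr18:37937563-37954918, minus strand), had promoter peaks of 0, 377 and 0 bp in neonatal and 242, 426 and 694 bp in adult libraries. Neonatal replicate 2 fell within the adult range (exact permutation p = 0.2, n = 3 and 3; adjusted p = 0.3). The start of Hdac3 is shared with Rell2, which runs the other way, and the peak just upstream was given to Rell2 by the authors' annotation. Within 1000 bp of the Hdac3 start, peaks given to either gene covered 0, 1200 and 0 bp in neonatal and 1017, 1191 and 1484 bp in adult libraries, so neonatal replicate 2 lay among the adult values here too. No class I gene had a peak outside its promoter in any library.

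Hdac7 and Hdac5, both class IIa, had the highest mean promoter coverage of the 10 genes in adult cells. Hdac7 (chr15:97792664-97844502, minus strand) had promoter peaks over 1051, 1267 and 745 bp in neonatal and 9205, 6872 and 7959 bp in adult replicates. Each neonatal library had 1 promoter peak of Hdac7, while the adult libraries had 9, 6 and 6. Hdac5 (chr11:102195744-102230166, minus strand) had 355, 590 and 243 bp in neonatal and 6759, 5646 and 7697 bp in adult libraries. All adult values of both genes lay far above all neonatal ones (exact permutation p = 0.1 for each, n = 3 and 3; adjusted p = 0.165). The ratio of geometric means was 17.9 for Hdac5, above 98.6% of the 3996 genes with promoter peaks in all 6 libraries, and 7.98 for Hdac7, above 91.1%. These sums add peaks near every listed start of a gene: Hdac5 has 3 start regions (defined below) and Hdac7 has 5, against 1 for Hdac2 and Hdac10. Within 1000 bp of the upstream start with peaks at both ages, Hdac7 had 1051, 1267 and 745 bp against 2098, 2083 and 1985 bp. Hdac5 had 196, 590 and 243 bp against 1332, 1249 and 1484 bp there. No percentile was computed for single starts.

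Hdac4 (chr1:91928779-92195699, minus strand) had promoter peaks over 552, 1247 and 329 bp in neonatal and 1703, 1867 and 2683 bp in adult libraries, a ratio of 3.35 that lay above 58.3% of those genes. The groups did not overlap, and neonatal replicate 2 came nearest to the adult values. Hdac9 (chr12:34047580-34907057 in the lists, extended to 34917095 in RefSeq, minus strand), the longest member at 859 kb, had 0, 148 and 0 bp in neonatal and 2243, 3179 and 4631 bp in adult libraries. Its lone neonatal peak, in replicate 2, ranked 21937 of 31189.

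Internal start sites of Hdac7 and Hdac9 carried the mark in adult libraries only. Start sites of each member in the lists and RefSeq were joined into regions where they lay within 1000 bp, which gave 26 regions over the 10 genes. Of these, 7 had a peak within 1000 bp in all 6 libraries, 7 had none in any library and 2 had a peak in all adult and no neonatal libraries: the internal start of Hdac7 at 97814863 and that of Hdac9 at 34528304 to 34528889. Regions of other genes were not counted this way, so the 2 of 26 are not a result about the members. Of the 32851 RefSeq windows, which are narrower, 1751 had a peak in all 6 libraries, 18570 in none and 2469 in all adult and no neonatal libraries. The upstream Hdac7 start near 97831495 carried 1051, 1267 and 745 bp in neonatal and 2098, 2083 and 1985 bp in adult libraries. The internal Hdac7 start, the CpG-poor window printed above, carried 0, 0 and 0 bp against 1027, 906 and 1160 bp. At Hdac9 the internal start carried 0, 0 and 0 bp in neonatal and 1509, 1807 and 2404 bp in adult libraries. The most upstream Hdac9 start in the lists, near 34906979, carried 0, 148 and 0 bp against 473, 0 and 215 bp, with overlapping groups. Hdac5 has an internal start at 102218928 that carried 159, 0 and 0 bp in neonatal and 1779, 1709 and 1778 bp in adult libraries, while its upstream start carried 196, 590 and 243 bp against 1332, 1249 and 1484 bp. Whether the age difference itself differed between the starts of a gene was not tested.

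**Figure D2:**
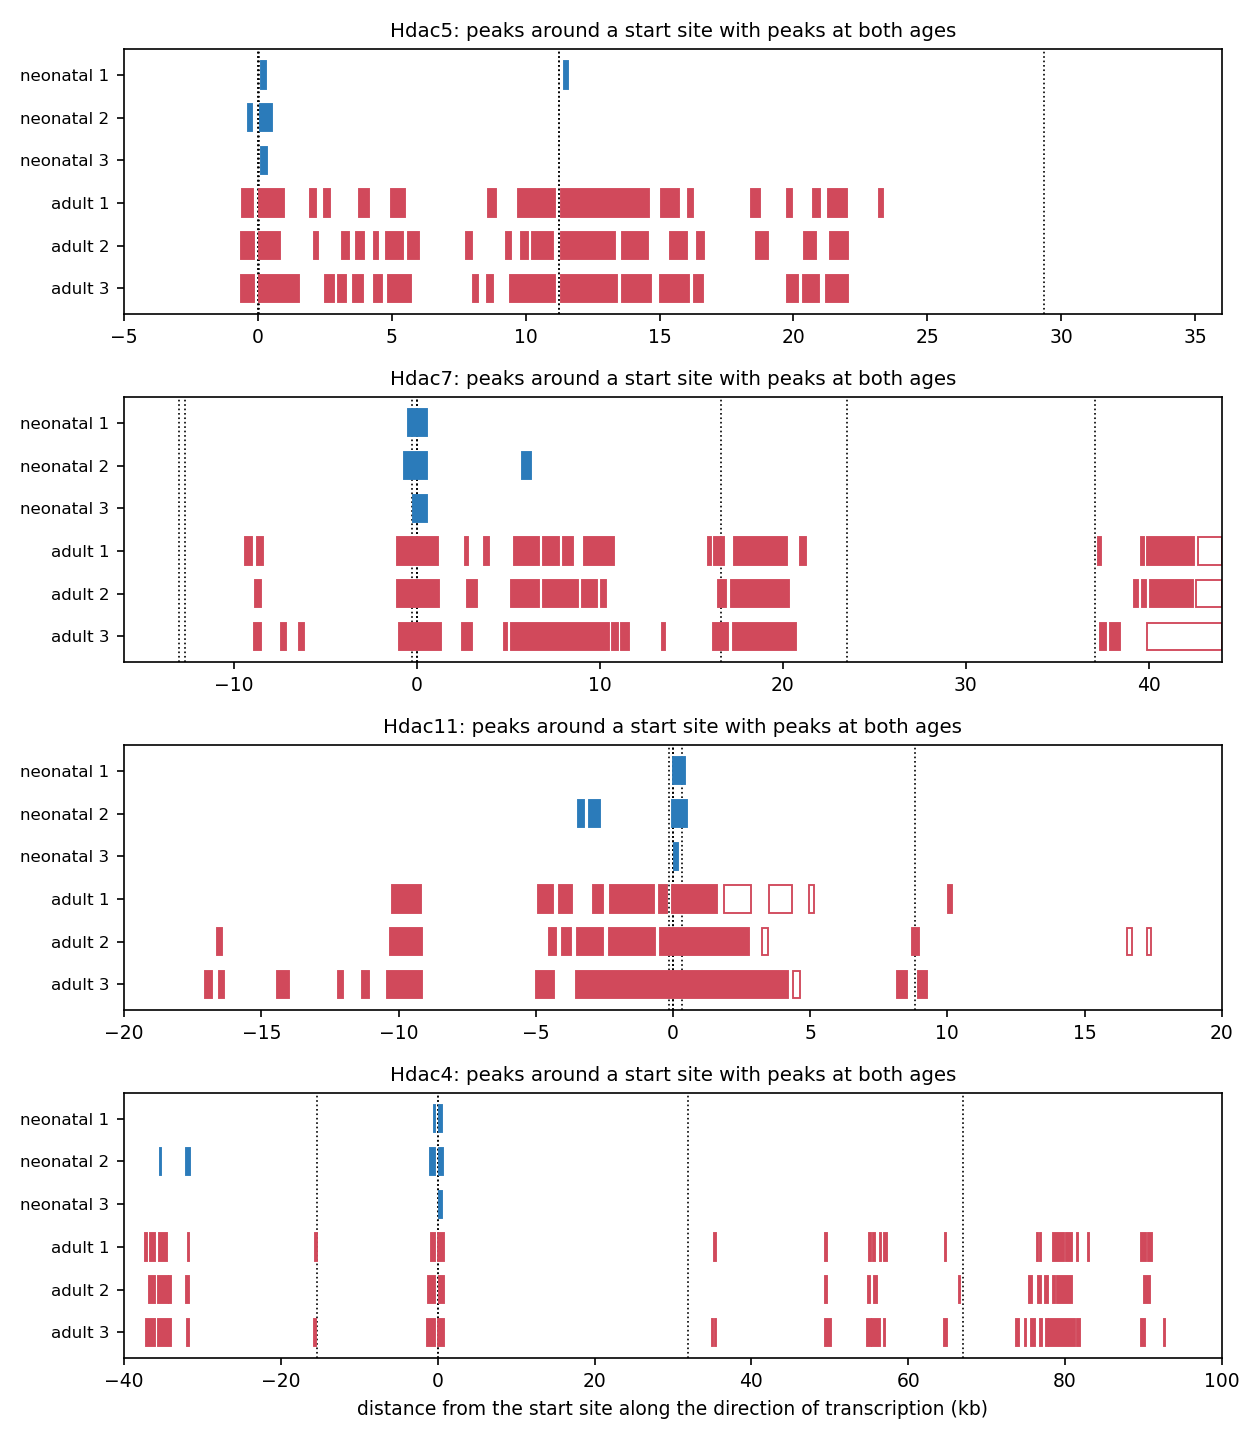
H4K8ac peaks of each library along Hdac5, Hdac7, Hdac11 and Hdac4, as distance in kb from a start site with peaks at both ages, read in the direction of transcription (neonatal libraries blue, adult red). Filled boxes are peaks given to the gene, open boxes are peaks given to a neighbouring gene and dotted lines are start sites. In the ranges drawn, every neonatal library has a box at or beside the start at 0 and few elsewhere, and adult boxes extend along and beside each gene.

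Hdac11, the smallest of the zinc-dependent deacetylases (chr6:91156665-91174692, plus strand), had values close to those of Hdac5 and Hdac7. Its promoter peaks covered 429, 910 and 153 bp in neonatal and 4053, 6145 and 8391 bp in adult libraries. The groups did not overlap, and the ratio of 15.2 lay above 97.7% of the genes with promoter peaks in all 6 libraries (exact permutation p = 0.1, n = 3 and 3; adjusted p = 0.165). This sum, too, adds peaks near every listed start, and Hdac11 has 2 start regions. Within 1000 bp of the region with peaks at both ages, it had 429, 516 and 153 bp in neonatal and 2129, 2315 and 2500 bp in adult libraries. In adult replicate 3 a single peak of 7737 bp (chr6:91153273-91161009) spanned the start, where the neonatal peak at the start was 429, 516 and 153 bp wide.

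Hdac10 and Sirt1 had smaller ratios of adult to neonatal coverage. Hdac10 (chr15:89123307-89128700, minus strand), a gene of 5.39 kb, had a single promoter peak in each library, of 205, 1185 and 240 bp in neonatal and 1579, 1628 and 1481 bp in adult cells. The neonatal libraries split, with replicate 2 closer to the adult values than to the other neonatal libraries. Sirt1 (chr10:63319005-63381704, minus strand) had 670, 1024 and 399 bp in neonatal and 2614, 1822 and 2863 bp in adult libraries. The groups of both genes did not overlap, and their ratios, 4.03 for Hdac10 and 3.68 for Sirt1, lay above 70.6% and 65.0% of the genes with promoter peaks in all 6 libraries. Part of the Sirt1 gain lay at an upstream start at 63381704 that it shares with Dnajc12, a co-chaperone gene. Peaks within 1000 bp, given to either gene, covered 0, 475 and 0 bp in neonatal and 1104, 680 and 1266 bp in adult libraries. The neonatal bases there, and part of those in adult replicate 2, lay in peaks given to Dnajc12 and are not in the Sirt1 sums. At the main Sirt1 start the coverage was 670, 1024 and 399 bp against 1432, 1576 and 1549 bp.

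The arrangement of peaks around the start site differed among members. At Hdac4, Hdac5 and Sirt1 the start site lay in a gap between an upstream and a downstream peak. The Sirt1 gap was 227 and 200 bp in neonatal replicates 1 and 2, while replicate 3 had only the downstream peak, and 144, 179 and 172 bp in the adult libraries. The Hdac4 gap was 466 and 409 bp in neonatal replicates 1 and 2 and 405, 408 and 350 bp in the adult libraries, wide enough that no peak of any library reached into the RefSeq promoter window of Hdac4. At Hdac5 both flanking peaks were present in 1 neonatal library, replicate 2, with a gap of 310 bp, and in all adult libraries, with gaps of 236, 184 and 189 bp. The starts of Hdac2 and Hdac7 lay inside a peak in all 6 libraries. With neonatal gaps in 1 or 2 libraries, no test of gap width was made.

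**Figure D3:**
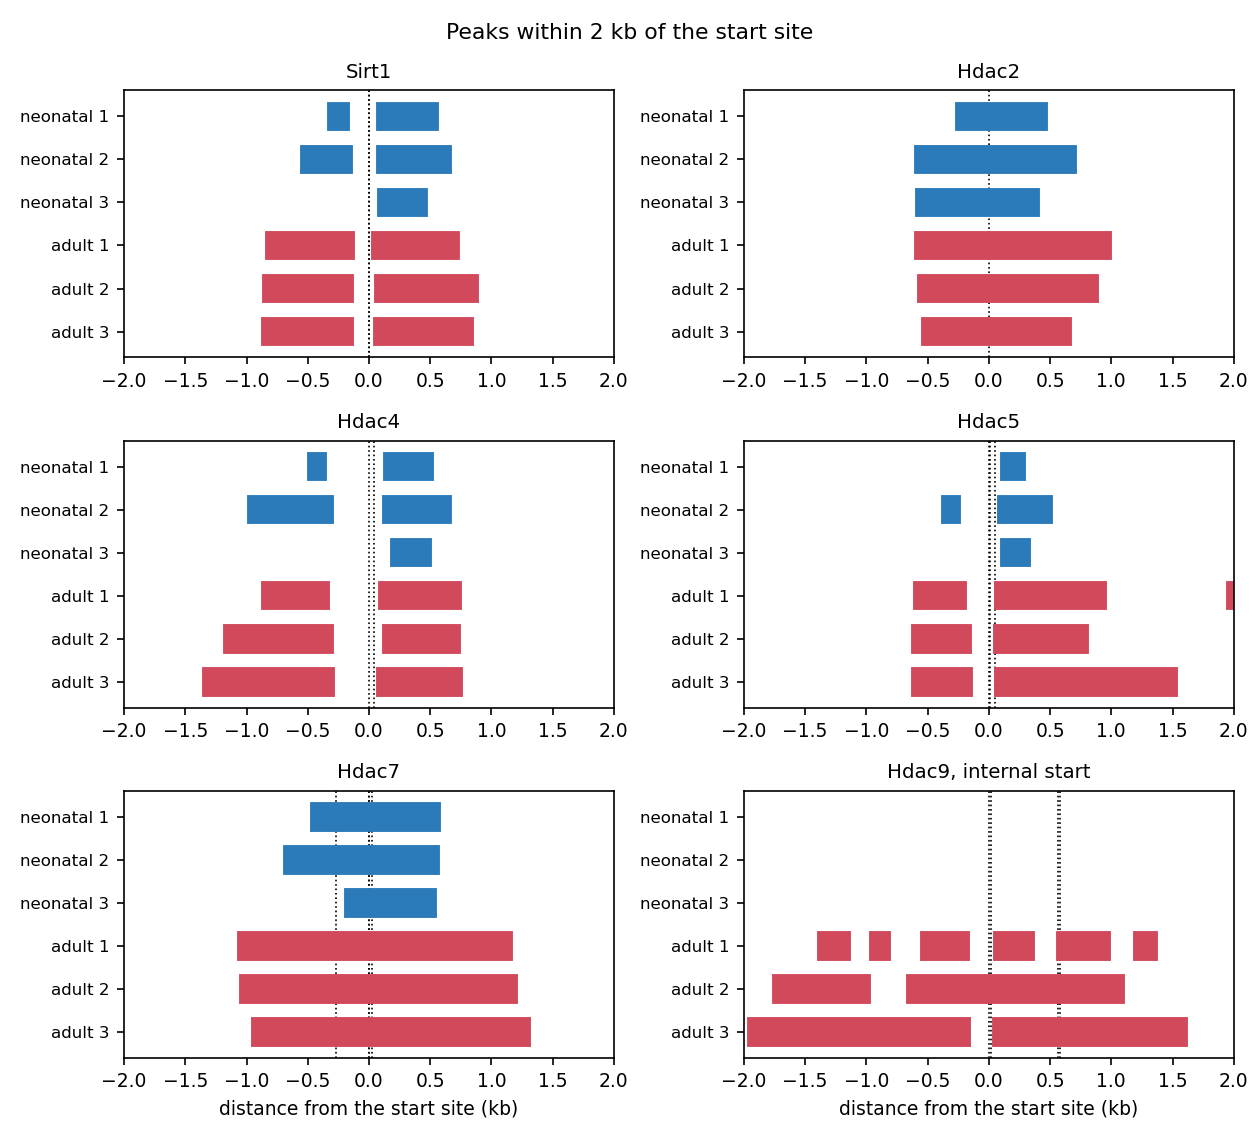
H4K8ac peaks within 2 kb of the start site for 6 start regions, 1 row per library, with distance in kb along the direction of transcription and dotted lines at start sites (neonatal blue, adult red). Sirt1, Hdac4 and Hdac5 show a gap at the start site, Hdac2 and Hdac7 a single peak across it, and the internal Hdac9 start has peaks in adult libraries only.

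Peaks outside promoters were listed for 5 of the 10 members in any library, against 12759 of the 23433 genes named in the lists. Hdac4, Hdac5, Hdac7, Hdac9 and Hdac11 had them, in 0, 3 and 0 of these genes in neonatal replicates 1, 2 and 3 and in all 5 in every adult library. Hdac1, Hdac2, Hdac3, Hdac10 and Sirt1 had none in any library. For all 5 genes the other peaks covered more bases in every adult than in every neonatal library, a pattern of 51.8% of the 12759 genes with such a peak in any library. Hdac5 and Hdac9 had other peaks in all adult and no neonatal libraries, as did 33.2% of those genes. The exact permutation p was 0.1 for each of the 5 genes (n = 3 and 3), with an adjusted p of 0.193 over all genes tested. Most of these peaks were intronic: 29 of 42, 27 of 39 and 35 of 50 in adult replicates 1, 2 and 3.

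Hdac4 held the most, with 0, 935 and 0 bp in neonatal and 8299, 8778 and 13445 bp in adult libraries. Many of its adult peaks lay in its intron 2, among them one of 3268 bp in adult replicate 3 (chr1:92099103-92102370). Hdac7 had 0, 639 and 0 bp in neonatal and 5930, 7509 and 8419 bp in adult libraries, chiefly in the first intron between its upstream and internal starts, where adult replicate 3 had a peak of 5391 bp (chr15:97820974-97826364). Hdac5 had 0, 0 and 0 bp against 3468, 4476 and 4996 bp, and Hdac11 had 0, 220 and 0 bp against 2132, 1904 and 3279 bp. Hdac9 had the least, 0, 0 and 0 bp against 261, 490 and 1278 bp. In all 5 genes the only neonatal library with an other peak, where there was one, was replicate 2.

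Seen over the whole gene, peaks of any assignment covered 28.5%, 28.0% and 35.5% of Hdac5 in adult replicates 1, 2 and 3, against 1.03%, 1.28% and 0.706% in neonatal replicates. For Hdac7 the adult shares were 23.0%, 21.8% and 29.6%, and for Hdac11 21.0%, 20.8% and 29.1%, with neonatal shares of at most 3.39% and 2.86%. The short Hdac10, of 5.39 kb, had adult shares as high, 26.4%, 27.9% and 30.3%, and neonatal shares of 0.0%, 19.6% and 0.0%. Hdac4, of 267 kb, was covered for 3.53%, 3.75% and 6.1% in adult libraries. Hdac9 was covered for at most 0.688% in any library. In Hdac10, 4 peaks within the gene were given to its neighbour Tubgcp6, and counted by position they gave Hdac10 a mean of 147 bp outside the promoter in neonatal and 788 bp in adult libraries (exact permutation p = 0.3, n = 3 and 3). The nearest-gene annotation moves single values: a strong peak downstream of Hdac7 (chr15:97789030-97791554 in adult replicate 1) was called promoter there and 3′ UTR in adult replicate 2. In adult replicate 3 the peak over that place, of 7214 bp, was given to Slc48a1.

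Among the 7353 strongest peaks of each library, the promoter difference held for part of the members. Of the 9 members with a promoter peak in that set, coverage stayed higher in every adult library for 4, Hdac5, Hdac7, Hdac11 and Sirt1. The same held for 35.0% of the 9904 genes with a promoter peak in that set. Hdac5 then had 196, 442 and 243 bp in neonatal and 4169, 2812 and 3580 bp in adult libraries, Hdac11 had 429, 516 and 153 bp against 1637, 4933 and 7737 bp, Hdac7 had 1051, 1267 and 745 bp against 4767, 2266 and 2277 bp, and Sirt1 had 670, 606 and 399 bp against 1432, 1576 and 1549 bp. The exact permutation p was 0.1 for these 4 genes (n = 3 and 3; adjusted p = 0.252). In adult replicate 1 the Hdac7 value adds 2 peaks, the one of 2242 bp at the start and the downstream peak described above, called promoter in that library. The start peak alone still lay above all neonatal values. Each adult Hdac5 value adds 2 peaks, one at the upstream start and one near the internal start, while each neonatal value is 1 peak at the upstream start. The adult peaks at the upstream start alone were 904, 766 and 1487 bp wide, also above all neonatal values of Hdac5. Hdac2 kept the same peaks in all 6 libraries, and Hdac4 had 552, 1247 and 329 bp against 1224, 1521 and 1766 bp, so the groups of both overlapped. Hdac10 had its peak within the 7353 in all 3 neonatal libraries and in adult replicate 2 only. The cut keeps the whole list of neonatal replicate 3, where the Hdac10 peak ranked 7267 of 7353 with a −log10 q of 1.72. The adult peaks left out, in replicates 1 and 3, ranked 7486 of 72278 and 11742 of 77002, with −log10 q of 25.2 and 23.3. Hdac1 was present in adult replicate 2 only, Hdac3 in neonatal replicate 2 only and Hdac9 in none. Outside promoters, only 2 members had a peak in that set: adult replicate 2 alone kept 1 peak each of Hdac4 and Hdac7. So 0 of these 2 stayed higher in every adult library, against 19.6% of the 1893 genes with such a peak. That Hdac7 peak lay at the same downstream place, called 3′ UTR in adult replicate 2.

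Single peaks can also be placed in the order of their own lists. The strongest promoter peak of Hdac5 ranked 5324 of 9097, 2612 of 31189 and 3386 of 7353 in neonatal lists and 252, 139 and 26 in the adult lists. That of Hdac7 ranked 422, 2150 and 1893 in neonatal and 351, 39 and 38 in adult lists. Both genes stood near the top of the adult lists, although ranks from lists of different length show no change by themselves. The authors' fold enrichment at these peaks was 4.67, 8.11 and 4.07 in neonatal and 23.0, 21.7 and 26.1 in adult libraries for Hdac5. For Hdac2 it was 7.89, 14.6 and 8.49 against 18.7, 8.33 and 25.4, with overlapping groups.

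The authors' deposited table of differential sites covers sites of 400 bp and gives no values per library. In it, 54 sites fell to the members, and all 54 were higher in adult cells. That direction was shared by 43634 of the 43888 sites of the authors' deposited table. By the site of smallest p, 9 of the 10 members had a promoter site listed as higher in adult, against 64.3% of the 18548 genes with a promoter peak, and Hdac3 had no listed site. The 5 genes with peaks outside promoters, a group formed after their values were seen, held 48 of the 54 member sites of the authors' deposited table. Of these 48, 26 were sites outside promoters, which by the rule of assignment could fall only to genes with such peaks. The group held 22 of the 28 promoter sites of the members. The median log2 fold change of the promoter site of smallest p was 2.01 over the 9 members and 1.77 over the 12058 genes of the authors' deposited table that have one.

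By this rule Hdac5 led the members of the authors' deposited table, with a log2 fold change of 3.2 at its internal start (chr11:102218415-102218814, adjusted p = 2.95e-08). The authors' deposited table gave 2.32 at its upstream start (adjusted p = 1.39e-06). By the same rule the authors' deposited table gave Hdac7 2.68 (chr15:97812679-97813078, adjusted p = 1.66e-07). At other Hdac7 sites, of larger p, the authors' deposited table gave 3.53 at the internal start (chr15:97814727-97815126, adjusted p = 4.06e-07) and 1.61 at the upstream start (adjusted p = 0.000359). For Hdac9 it gave 2.49 at the internal start (chr12:34528418-34528817), for Hdac1 1.98, for Sirt1 2.34, for Hdac11 2.01, for Hdac4 1.76 and for Hdac10 1.26, all log2 values of the authors' deposited table. The authors' deposited table gave Hdac2 the lowest value of the 9 members, 0.96 (adjusted p = 0.0265), above only 1.91% of the genes with a promoter site. By the same measure of the authors' deposited table, Hdac5 lay above 84.0% of those genes, Hdac7 above 77.4%, Hdac9 above 74.0% and Sirt1 above 71.2%. Hdac11 lay above 61.3%, Hdac1 above 60.1%, Hdac4 above 49.4% and Hdac10 above 14.1%, lower for Hdac5, Hdac7 and Hdac11 than by covered bases. The highest log2 fold change that the authors' deposited table gave a member was 5.56, at an Hdac4 intronic site (chr1:92104284-92104683, adjusted p = 7e-06).

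**Figure D4:**
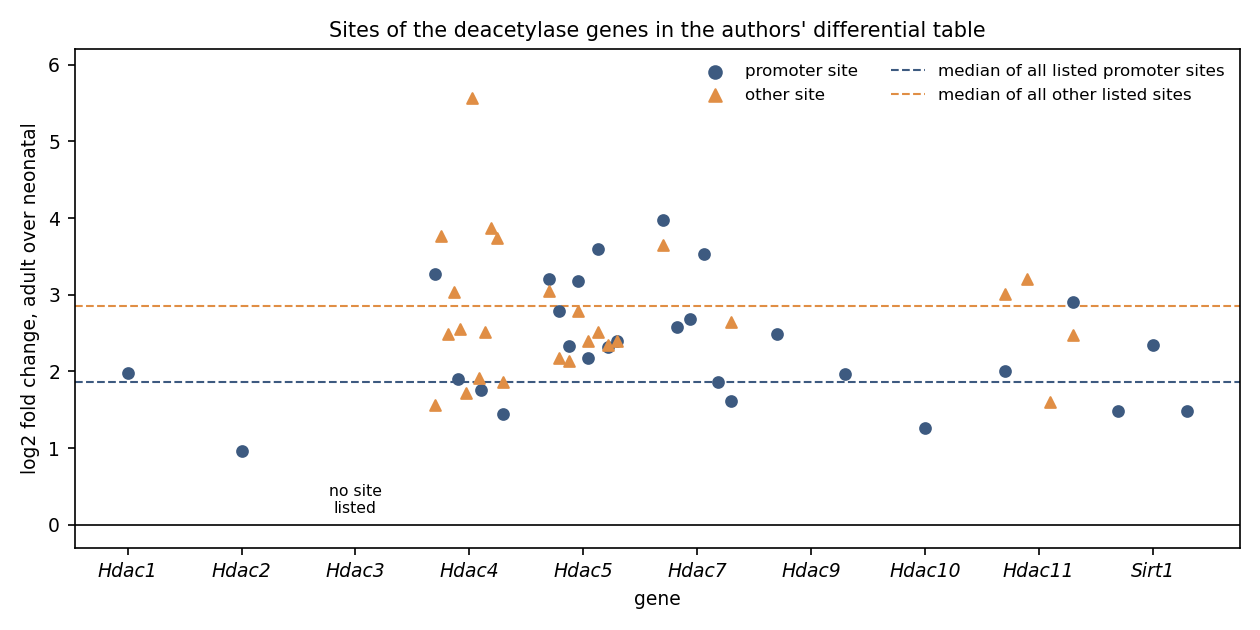
Log2 fold change, adult over neonatal, of each site of the deacetylase genes in the authors' deposited table, with circles for promoter sites and triangles for other sites. Dashed lines are the medians of all listed promoter sites (1.86) and of all other listed sites (2.85). All 54 sites lie above 0, and the single Hdac2 site, at 0.96, is the lowest.

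Of 8 other deacetylases of the mouse, 0, 5 and 0 had a promoter peak in neonatal replicates 1, 2 and 3, and 6 in each adult library. Of them, Sirt2, a deacetylase abundant in myelin, went from 0, 690 and 0 bp in neonatal to 6312, 9687 and 13510 bp in adult libraries, and the authors' deposited table gave it a log2 fold change of 3.3. Hdac8, a class I enzyme, had promoter peaks only in the adult libraries, of 311, 481 and 581 bp. Hdac6, a cytoplasmic tubulin deacetylase, had 0, 465 and 0 bp against 439, 274 and 619 bp, with overlapping groups, and Sirt4 had 0, 394 and 0 bp against 1070, 817 and 784 bp. Sirt6 and Sirt7 had no promoter peak in any list.

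Genes of the complexes that hold class I enzymes (NuRD, Sin3, CoREST, NCoR and SMRT) were marked at most promoters at both ages. A promoter peak was listed for 25, 33 and 21 of 33 in neonatal and for 32 of 33 in each adult library, and 30 of the 33 covered more bases in every adult than in every neonatal library, against the 60.1% of all genes above. In the authors' deposited table the lowest log2 fold changes of the list were those of Rcor3 (1.06) and Rbbp4 (1.21), and the highest were those of the NuRD subunits Mta1 (4.36) and Mta3 (3.38). Mta3 had 1190, 1483 and 869 bp in neonatal and 5759, 5504 and 8720 bp in adult libraries, and Mta1 had 1020, 1485 and 1029 bp against 2526, 2184 and 3675 bp. Ncor1, the scaffold that binds Hdac3, was the only gene of the list with promoter peaks in all neonatal (483, 1015 and 657 bp) and no adult libraries, but the authors' deposited table lists its promoter at a log2 fold change of 1.35. Its start adjoins that of Pigl, and the adult peaks across both starts, of 2124, 2391 and 2403 bp, were given to Pigl.

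Partners of the class IIa enzymes, the MEF2 factors and 14-3-3 proteins, had a promoter peak for 6, 8 and 6 of 9 genes in neonatal and 8, 7 and 7 in adult libraries, and 6 of the 9 covered more bases in every adult library, near the 60.1% of all genes. Mef2d had 376, 3374 and 521 bp in neonatal and 5700, 5259 and 6115 bp in adult libraries (4.16 on the log2 scale of the authors' deposited table). Mef2a had 1222, 1811 and 1051 bp against 2476, 2259 and 2793 bp (1.53 by the authors' deposited table). The 14-3-3 genes Ywhab and Ywhaz had log2 values of 2.84 and 1.24 in the authors' deposited table, with the groups apart in both genes: 274, 747 and 297 against 1941, 2206 and 2298 bp for Ywhab and 1386, 1813 and 1047 against 2362, 2351 and 2771 bp for Ywhaz. Mef2b had no promoter peak.

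The opposing enzymes, 10 lysine acetyltransferases, had a promoter peak for 6, 10 and 8 genes in neonatal and 10 in each adult library, and all 10 covered more bases in every adult than in every neonatal library, against 60.1% of all genes. Kat2b (PCAF) had 646, 769 and 642 bp in neonatal and 5122, 5843 and 6598 bp in adult libraries, with 2.87 on the log2 scale of the authors' deposited table. Hat1 had 0, 202 and 0 bp against 406, 512 and 660 bp (2.15 by the authors' deposited table). Kat5 and Kat6b were lowest in the authors' deposited table, with log2 values of 1.02 and 1.16. The lists were not tested against each other.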

How the data were processed

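H4K8ac ChIP-seq libraries of sorted OPCs (3 neonatal, 3 adult) were analysed from 1 peak list each, so peaks were called per library. The submitters' processing notes name GRCm38, Trim Galore, Bowtie2 2.4.5, SAMtools, deepTools, MACS2, DiffBind and ChIPseeker, without their order or settings. Columns of the lists, per the file headers, hold a score, the fold enrichment (a linear ratio), p-values and q-values as −log10, the nearest gene and the class of each deposited peak. In the lists the deposited score is 10 times −log10 q, and the largest q-value of a list lies between 0.0427 and 0.0489. In the authors' differential table each site has a log2 fold change with its raw and adjusted p-value. Positive values were taken to mean more signal in adult cells, since 85.0% to 96.7% of such sites overlapped a peak of an adult list and 10.3% to 27.8% one of a neonatal list.

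For each gene and library the widths of peaks annotated as promoter, and of all other peaks, were summed. Ages were compared for every gene by an exact two-sided permutation test of the difference of means over the 20 arrangements of the libraries, with Benjamini-Hochberg adjustment over all genes with a peak of that kind (Python 3.11.15, numpy 2.4.6, pandas 2.3.3, scipy 1.17.1; bedtools 2.31.1 for overlaps). The procedure was tested on simulated data. Sites of the authors' table were assigned the gene and class of the peak of largest overlap. Start sites came from the lists and RefSeq (GRCm38.p6, which overlapped the listed position of all 10 members). Alternatives were a q-value under 0.005, the 7353 strongest peaks per library, promoters within 1000 bp, assignment by position, each library left out, and the replicate number as a block. The members and gene lists were chosen with earlier results of these data known. All members are named; of each other gene list, the 2 highest and 2 lowest promoter log2 fold changes and any gene marked at its promoter in all libraries of 1 age and none of the other. Depth is unknown, so no counting error is given, and the number of libraries limits the precision.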

Additional observations from a re-analysis of the deposited data

How the results depend on the processing

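Under the alternatives run, 162 of 169 values for single members were counted as keeping their direction, some at a much smaller size. For the summaries over the members, 64 of 71 values stayed close to those reported. Not all of these could have changed: 15 of the 162 used the replicate number as a block, which leaves a difference of means as it is. The same holds for the medians under that block. Values of Hdac10 outside the promoter that stayed at 0 in both ages have no direction and were also counted as kept. The exceptions came from the 7353 strongest peaks of each library, from leaving out neonatal replicate 2 and, for Hdac10 alone, from assignment by position, which gave it a difference of 641 bp outside the promoter in place of 0.0. With equal numbers of peaks, the mean number of members with a promoter peak went from 2.0 more in adult libraries to a difference of -0.667, and that with a peak outside the promoter from 4.0 to 0.667. The number of members higher in every adult library fell from 8 to 4 for promoter peaks and from 5 to 0 for other peaks. The adult minus neonatal difference in the median covered length over the members fell from 1663 to 1046 bp for promoters and from 4240 to 0 bp for other peaks (over the 5 genes that have any). The promoter difference of Hdac3 then reversed (-126 bp), and that of Hdac10 fell to -0.667 bp. The promoter difference of Hdac9 and the differences outside promoters of Hdac5, Hdac9 and Hdac11 fell to 0.0 bp, and those outside promoters fell from 9862 to 651 bp for Hdac4 and from 7073 to 777 bp for Hdac7 (exact permutation p = 1 for both). This alternative keeps fewer peaks of the longer lists by its construction, and no other cause was tested. Leaving out 1 library gave between 0 and 3 members with promoter peaks in all adult and no neonatal libraries: the 3 appeared without neonatal replicate 2, and they were Hdac1, Hdac3 and Hdac9. With each library left out in turn, the number of members higher at the promoter in every adult library ranged from 8 to 10. A stricter adjusted p of 0.005 left 7 of 9 members with a promoter site in the authors' table.

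Replicate numbers shared between the ages showed no clear pairing. The deviations of same-numbered libraries correlated by -0.04, 0.01 and 0.06 across genes, and 3 of 6 libraries correlated best with their own number. With 3 libraries per age and neonatal lists of very different length, these values cannot exclude pairs or a shared batch. With the replicate number as a block, the differences of the medians were by construction the same 1663 and 4240 bp. An exact sign-flip test gave p = 0.25, the smallest it can give, for all 10 members at promoters and all 5 elsewhere.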
